A study of Mus musculus with 12 samples.

Results

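Entry into mitosis is driven by the kinase CDK1 bound to cyclin A or cyclin B. WEE1 holds the complex inactive by phosphorylating CDK1, and the CDC25 phosphatases release it. Polo-like kinase 1 and the Aurora kinases act beside this switch in centrosome maturation, spindle assembly and chromosome segregation, and DNA damage checkpoints restrain it until breaks are repaired. Many of these genes are transcribed in a wave that peaks in G2 and mitosis, under the MuvB complex with B-MYB and FOXM1. Here 10 of them were followed: the cyclins Ccna2, Ccnb1 and Ccnb2, the kinase Cdk1, the phosphatases Cdc25b and Cdc25c, the inhibitory kinase Wee1, and the mitotic kinases Plk1, Aurka and Aurkb. They were picked by gene symbol from the 54532 genes of the deposited table. Each stood there once, and all 10 were among the 13012 genes tested.

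The cells were MC38, a mouse colorectal cancer line, in 4 groups of 3 libraries: untreated controls, nintedanib at 3 µM, X-ray irradiation at 8 Gy, and nintedanib at 3 µM together with 8 Gy. Nintedanib blocks the receptor tyrosine kinases of the VEGF, FGF and PDGF families. A treatment time of 24 hours is labelled for each treated group, whereas the controls carry neither a time nor a vehicle. The series describes 3 independent repeats of the experiment, in 1 cell line, and the p-values measure the spread between those repeats.

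Values are FPKM, in which fragment counts are divided by the length of the gene and by depth. Libraries held 16103528 to 18196615 fragments, recovered from the deposited values, and each of the 10 genes rested on 452 to 6701 fragments per library, so counting error alone was at most 4.70%. Of 8 epithelial marker genes, 2 reached 1 FPKM in any library (Cdh1 and Krt19), Epcam was listed at 0 throughout, and Krt20 and Cdx2 reached at most 0.0317 and 0.0473 FPKM. Of 5 mesenchymal marker genes, the filament gene Vim was at 579 FPKM in controls and Fn1 at 50.7 FPKM. Acta2 (7.44), Zeb1 (5.72) and Cdh2 (4.36) were far lower, and the epithelial Cdh1 was at 4.49 FPKM. The colorectal label was not borne out by Epcam, Krt20 and Cdx2, and the origin of the line was not tested.

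The promoters of 6 of the 10 genes were taken from the RefSeq set for GRCm38.p6 and are shown because 5 of them hold motif strings known from promoters of the G2/M wave. Lower-case bases run from 110 before the RefSeq gene start to 40 after it, 5′ to 3′ on the gene's strand. Capitals mark CCAAT, the box bound by NF-Y (ATTGG where it lies on the other strand), TTTGAA and TTTAAA, forms of the cell cycle homology region bound by MuvB, and the E2F-type motif GGCGGGA, which in Cdc25b lies on the other strand and so reads TCCCGCC.
Ccnb1, chr13:100786447-100786596, minus strand: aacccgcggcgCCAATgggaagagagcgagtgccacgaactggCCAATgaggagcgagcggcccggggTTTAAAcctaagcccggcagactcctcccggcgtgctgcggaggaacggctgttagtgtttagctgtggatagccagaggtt
Ccnb2, chr9:70421515-70421664, minus strand: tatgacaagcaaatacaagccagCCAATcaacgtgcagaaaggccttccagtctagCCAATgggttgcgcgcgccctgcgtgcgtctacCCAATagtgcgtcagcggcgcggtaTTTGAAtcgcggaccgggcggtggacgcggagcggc
Cdk1, chr10:69352873-69353022, minus strand: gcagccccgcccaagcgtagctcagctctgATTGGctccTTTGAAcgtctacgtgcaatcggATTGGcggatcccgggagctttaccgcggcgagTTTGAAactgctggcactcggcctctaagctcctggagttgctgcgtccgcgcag
Cdc25b, chr2:131186838-131186987, plus strand: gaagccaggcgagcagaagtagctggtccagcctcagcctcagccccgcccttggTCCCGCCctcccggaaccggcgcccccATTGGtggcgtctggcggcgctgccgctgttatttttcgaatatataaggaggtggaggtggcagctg
Plk1, chr7:122159325-122159474, plus strand: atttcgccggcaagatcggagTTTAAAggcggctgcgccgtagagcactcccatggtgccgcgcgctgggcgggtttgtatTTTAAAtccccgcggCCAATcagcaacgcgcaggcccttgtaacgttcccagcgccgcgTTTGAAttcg
Aurka, chr2:172370531-172370680, minus strand: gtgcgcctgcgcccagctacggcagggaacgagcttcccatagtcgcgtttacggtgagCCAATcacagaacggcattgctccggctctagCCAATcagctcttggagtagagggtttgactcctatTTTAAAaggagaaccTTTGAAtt

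All 6 windows held a CCAAT box on either strand, as did 37.4% of all 32851 promoter windows of 300 bases. TTTGAA stood in 4 of the 6 (17.9% of all windows), TTTAAA in 3 (13.2%) and GGCGGGA in 1 (11.3%). Each motif was searched on both strands, and no 2 of them overlapped in these promoters. In Ccnb1, Ccnb2, Cdk1 and Aurka a pair of CCAAT boxes lay on 1 strand with starts 32 or 33 bases apart. Such a pair, at 31 to 34 bases, occurred in 0.895% of all windows. That spacing was looked for after the sequences had been seen. Ccna2, Cdc25c, Wee1 and Aurkb are not shown. A match is only a string of letters, and no binding was measured here.

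**Figure D1:**
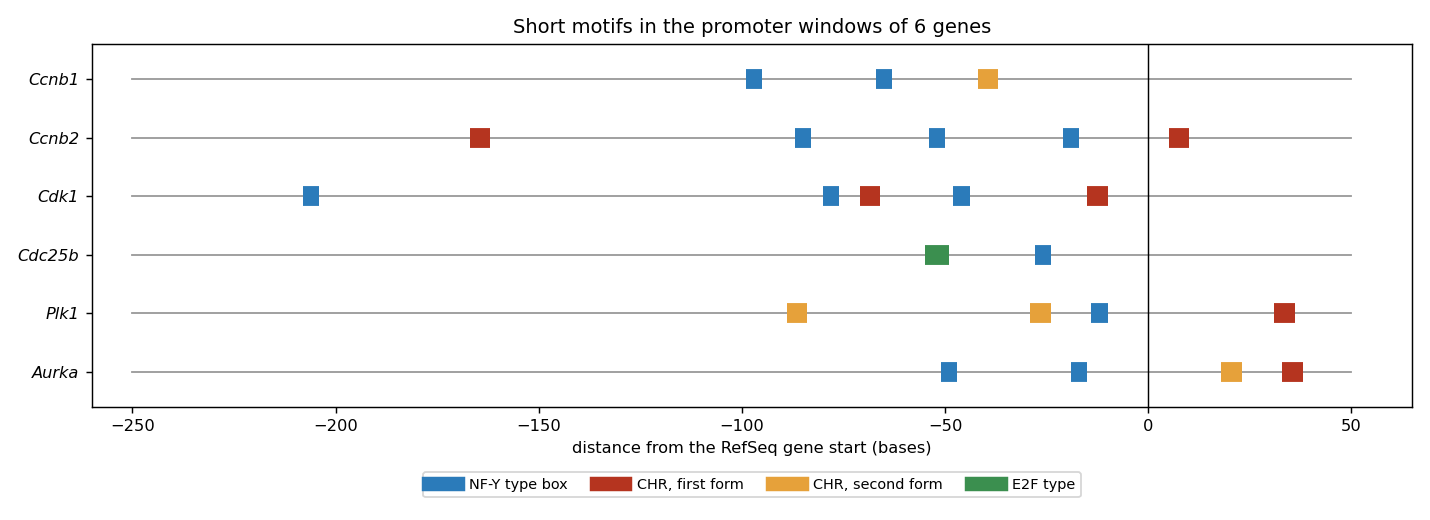
Positions of the motifs in the 300-base promoter windows of 6 genes, with the distance from the RefSeq gene start in bases on the x axis; boxes are CCAAT on either strand (NF-Y type), TTTGAA (CHR, first form), TTTAAA (CHR, second form) and GGCGGGA (E2F type). Cdc25b is the gene of the 6 with neither CHR form.

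Radiation against control asks what 8 Gy did to the switch at 24 hours. Of the 10 genes, 9 rose and 0 fell, and Aurkb did not pass the test. Over all genes tested, 8.04% rose and 9.90% fell in this comparison. In 9 of the 10 every irradiated library was above every control, against 17.4% of all genes, and in 0 below, against 24.3%. The median log2 fold change of the 10 genes was 0.76, against -0.03 over all genes tested. The test was limma on log2(FPKM + 1) over all 12 libraries, with a Benjamini-Hochberg adjusted p under 0.05 counted as a change. In bulk RNA, more cells in G2 or mitosis and more transcript per cell cannot be told apart.

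The B-type cyclins, which activate CDK1 for mitosis, rose furthest with Aurka. Ccnb2 (ENSMUSG00000032218, chromosome 9, 70407692 to 70421547) was at 52.9, 56.2 and 53.9 FPKM in the controls and at 128, 121 and 122 FPKM after radiation. The irradiated libraries all stood above every control, and the mean was 2.27 times higher (log2 fold change 1.17, SE 0.09, adjusted p = 5.86e-05). It ranked 32 among the 13012 genes by fold change. Ccnb1 (ENSMUSG00000041431, chromosome 13, 100778650 to 100786570) was at 39.9, 35.7 and 41.0 FPKM in controls and at 89.3, 82.2 and 79.1 FPKM after radiation, a log2 fold change of 1.09 (SE 0.10, adjusted p = 0.000108). Again no irradiated library overlapped the controls. Ccna2 (ENSMUSG00000027715, chromosome 3, 36564865 to 36572150), the cyclin of S phase and early G2, moved less. It went from 64.4, 63.6 and 67.5 FPKM to 92.0, 87.8 and 89.4 FPKM (log2 fold change 0.46, SE 0.10, adjusted p = 0.00914).

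The balance of cyclin B1 to cyclin A2 transcripts shifted. The ratio of Ccnb1 to Ccna2 FPKM within a library was 0.561 to 0.619 in controls, 0.885 to 0.971 after radiation and 0.991 to 1.04 with both treatments. With nintedanib alone it was 0.609 to 0.747, which overlapped the controls. Between the 2 cyclins B the ranges overlapped: Ccnb2 over Ccnb1 was 1.31 to 1.58 in controls and 1.43 to 1.54 after radiation.

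Cdk1 (ENSMUSG00000019942, chromosome 10, 69335146 to 69352938), their catalytic partner, was at 27.4, 27.2 and 26.1 FPKM in controls and at 52.8, 43.5 and 43.8 FPKM after radiation. All irradiated libraries were above all controls (log2 fold change 0.77, SE 0.12, adjusted p = 0.00245), and the first irradiated library was the highest of the 12.

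The CDC25 phosphatases remove the inhibitory phosphates from CDK1. Cdc25b (ENSMUSG00000027330, chromosome 2, 131186949 to 131198497) was at 49.5, 50.4 and 51.7 FPKM in controls and at 98.4, 92.3 and 97.3 FPKM after radiation (log2 fold change 0.91, SE 0.08, adjusted p = 8.6e-05). Cdc25c (ENSMUSG00000044201, chromosome 18, 34732997 to 34751533) was at 16.2, 16.6 and 15.3 FPKM in controls and at 27.5, 28.1 and 27.3 FPKM after radiation (log2 fold change 0.75, SE 0.07, adjusted p = 0.000112). In neither gene did the groups overlap.

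Wee1 (ENSMUSG00000031016, chromosome 7, 110122046 to 110143286), the kinase that opposes them, rose least of the 9. It was at 18.7, 16.1 and 17.9 FPKM in controls and at 23.8, 20.7 and 24.5 FPKM after radiation, a log2 fold change of 0.37 (SE 0.08, adjusted p = 0.0121). The lowest irradiated library lay close above the highest control. Without the second control library the change was 0.31 with an adjusted p of 0.0503. Within libraries, Cdc25b over Wee1 FPKM was 2.65 to 3.14 in controls and 3.98 to 4.46 after radiation, and Cdc25c over Wee1 was 0.855 to 1.03 and 1.12 to 1.36. Both ratios of phosphatase to kinase transcript were higher in every library with radiation alone than in any control. With both treatments Cdc25b over Wee1 was 3.38 to 3.77, above the controls, whereas Cdc25c over Wee1 was 0.906 to 0.967, inside the control range. With nintedanib alone they were 2.79 to 3.52 and 0.662 to 0.903, and both overlapped the controls.

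Plk1 (ENSMUSG00000030867, chromosome 7, 122159439 to 122169873), which helps to activate CDC25 and to mark WEE1 for destruction, was at 48.3, 52.3 and 49.1 FPKM in controls and at 83.5, 69.0 and 81.5 FPKM after radiation. All irradiated libraries were higher (log2 fold change 0.63, SE 0.15, adjusted p = 0.0143). The second of them was the lowest, and without the first the value was 0.58 with an adjusted p of 0.0511.

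The 2 Aurora kinases parted. Aurka (ENSMUSG00000027496, chromosome 2, 172356190 to 172370535), which acts at centrosomes and spindle poles and activates PLK1, went from 53.9, 55.03 and 55.04 FPKM to 130.5, 111 and 118 FPKM (log2 fold change 1.12, SE 0.10, adjusted p = 0.000102). Aurkb (ENSMUSG00000020897, chromosome 11, 69045647 to 69051664), the kinase of the chromosomal passenger complex, was at 41.5, 42.9 and 43.7 FPKM in controls and at 50.5, 43.0 and 49.1 FPKM after radiation. Its second irradiated library lay within the controls (log2 fold change 0.15, 95% interval -0.06 to 0.35, adjusted p = 0.303). With FPKM rescaled to a common sum per library, Aurkb passed at 0.255 (adjusted p = 0.0358). The ratio of Aurka to Aurkb was 1.26 to 1.30 in controls and 2.40 to 2.58 after radiation, with no overlap. With nintedanib it was 1.17 to 1.43, and with both treatments 2.41 to 2.45.

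**Figure D2:**
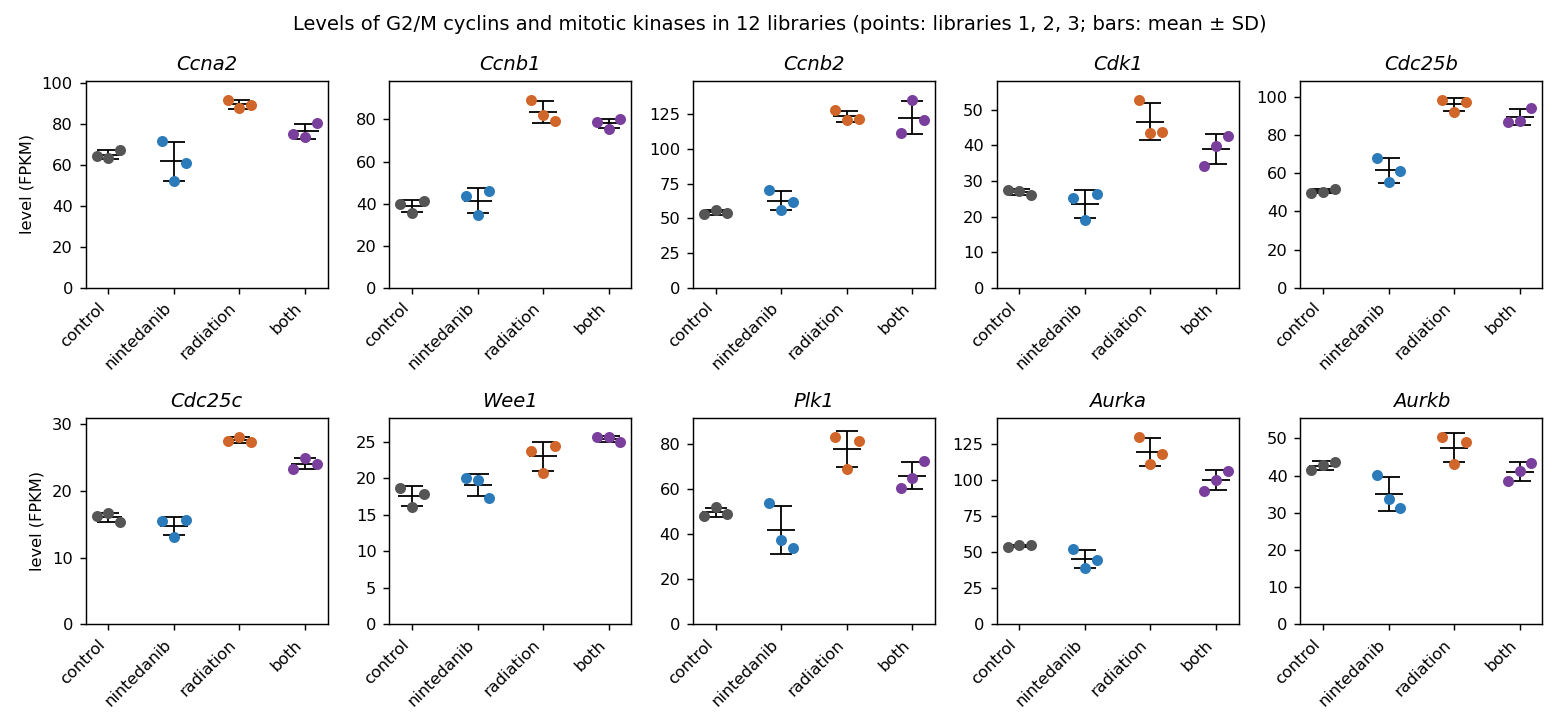
Levels of the 10 genes in FPKM (y axis, from 0) in each library, by group; points are libraries 1, 2 and 3, and the bars give the mean ± SD of 3. Irradiated libraries, with or without the drug, stand above controls in 9 genes, and Aurkb overlaps. Over all genes, 17.4% stood above controls without overlap after radiation and 26.7% with both treatments.

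**Figure D3:**
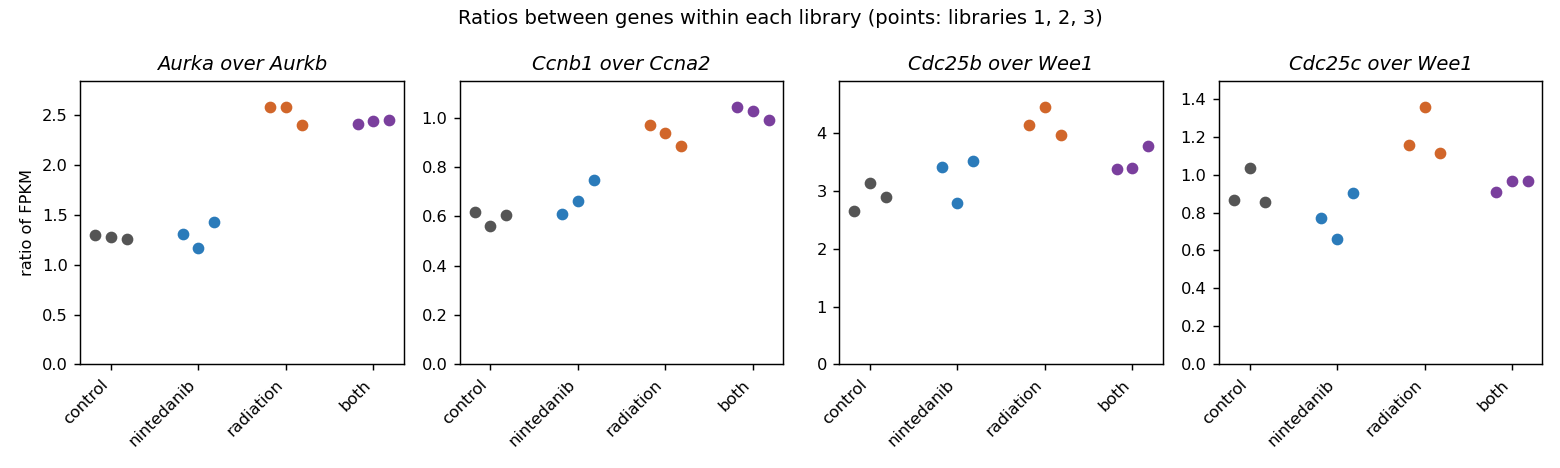
Ratios of FPKM between pairs of the genes within each library (y axis, from 0), by group, with 1 point per library. Aurka over Aurkb lies between 1.17 and 1.43 in unirradiated libraries and between 2.40 and 2.58 in irradiated ones.

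Scaling changed the balance of calls over all genes. As deposited, 44.8% of all genes that changed after radiation were higher, against 69.7% with FPKM rescaled to a common sum and 59.9% rescaled by fragment totals. Of the 10 genes, 9, 10 and 9 rose under these scalings and 0 fell.

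The next question was how the drug acted on unirradiated cells. Of the 10 genes, 1 rose, 2 fell and 7 did not pass the test, whereas 19.7% of all genes rose and 22.0% fell. In either direction 41.6% of all genes passed. The median log2 fold change was -0.10, against -0.02 over all genes. The spread between libraries was wide in this group: the coefficient of variation of the 10 genes had a median of 13.6% and reached 25.5% for Plk1, against a median of 3.19% in controls.

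Cdc25b was at 68.0, 55.3 and 60.9 FPKM with the drug, above all controls, as were 24.5% of all genes without overlap (log2 fold change 0.27, SE 0.08, adjusted p = 0.0147). The call held in 21 of 22 alternative settings and was lost with only the 2 groups in the fit (adjusted p = 0.0523). Cdc25b was the highest-ranked of the 10 under the drug.

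Aurka was at 52.2, 39.3 and 44.6 FPKM with the drug, all below the controls, as were 26.5% of all genes (log2 fold change -0.27, SE 0.10, adjusted p = 0.048). The call was lost in 15 of 22 alternative settings, among them those without any 1 of the 3 control libraries (adjusted p = 0.0887, 0.104 and 0.11), without the second (0.185) or the third nintedanib library (0.0938), without the second (0.0535) or the third radiation library (0.0625) and without the second (0.0617) or the third combination library (0.0521). Aurkb was at 40.0, 33.7 and 31.3 FPKM, again all below the controls (-0.29, SE 0.09, adjusted p = 0.0287). Its call was lost in 9 settings, which included leaving out the first (0.0515), second (0.069) or the third control (0.0843) and the second (0.085) or the third nintedanib library (0.1). Rescaled to a common sum, Aurka had -0.18 and Aurkb -0.19, and neither passed. The split of the 3 calls also turned with the scaling: 2 of the 10 rose and 0 fell with FPKM rescaled to a common sum, and likewise when rescaled by fragment totals.

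The other 7 genes overlapped their controls. Plk1 was at 54.0, 37.6 and 34.0 FPKM with the drug, with 1 library above all controls and 2 below (log2 fold change -0.28, adjusted p = 0.155). Without that first library it was lower at -0.47 (adjusted p = 0.00445). Ccnb2 was at 70.2, 56.1 and 62.1 FPKM (0.20, adjusted p = 0.101) and passed without the second nintedanib library (0.28, adjusted p = 0.0395), rescaled to a common sum (0.295), rescaled by fragment totals (0.26) and with voom on the recovered fragments (0.23). The second nintedanib library was the lowest of its group for Ccna2 (52.4 FPKM), Ccnb1 (34.6 FPKM), Cdk1 (19.1 FPKM) and Cdc25c (13.1 FPKM), beside 61.3 to 71.6, 43.6 to 45.8, 25.2 to 26.4 and 15.4 to 15.6 FPKM in the others. Wee1 was at 20.0, 19.8 and 17.3 FPKM (0.11, adjusted p = 0.31).

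Some markers of other cell types moved with the drug. The summed FPKM of 7 leukocyte genes was 3.86 to 4.79 in controls, 14.7 to 15.1 with nintedanib, 4.95 to 5.84 with radiation and 17.4 to 20.1 with both. Nearly all of it was Cd68, a lysosomal protein gene, at 13.6 to 14.4 FPKM with the drug. Only 2 of the 7 were tested, and Cd68 rose with nintedanib (1.59). The myeloid lysozyme gene Lyz2 also passed (0.59, adjusted p = 0.0317). It reached at most 0.308 FPKM in controls and 0.853 FPKM with radiation, and so came through the filter only by libraries with the drug. Its call is therefore not separate evidence of a rise. Lyz2 was at 0.208 ± 0.0906 FPKM in controls, 0.829 ± 0.308 FPKM with nintedanib, 0.637 ± 0.224 FPKM with radiation and 1.12 ± 0.485 FPKM with both. Cd3e was listed at 0 throughout, and Ptprc, which marks all leukocytes, had a maximum of 0.0292 FPKM. The summed FPKM of the 8 epithelial genes was 4.92 to 5.82 in controls, 6.45 to 9.50 with nintedanib, 6.80 to 7.16 with radiation and 11.3 to 13.7 with both. The part of either marker set in these results was not tested.

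The combination against radiation asks whether the drug altered these genes in irradiated cells. None of the 10 passed (0 higher, 0 lower by limma), although 17.2% of all genes were higher and 17.3% lower. At an unadjusted p under 0.05 there were 3 (Ccna2, Cdc25c and Aurka), and voom on the recovered fragments called 1, Aurka (-0.25, adjusted p = 0.0453). The point estimates were below 0 in 9 of the 10 genes, from -0.26 for Aurka to 0.14 for Wee1, and the median was -0.20 against -0.01 over all genes. The 95% intervals reached down to -0.55 and up to 0.33.

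Aurka was at 92.9, 100.3 and 107 FPKM with both treatments, all below the irradiated libraries (log2 fold change -0.26, SE 0.10, adjusted p = 0.0679). Cdc25c was at 23.2, 24.9 and 24.1 FPKM, also all below them (-0.19, SE 0.07, adjusted p = 0.0523). Ccna2 was at 75.4, 73.6 and 80.8 FPKM (-0.23, adjusted p = 0.0916) and Cdk1 at 34.3, 39.8 and 42.7 FPKM (-0.26, adjusted p = 0.133). Wee1 alone lay above, at 25.6, 25.7 and 25.0 FPKM (0.14, adjusted p = 0.208). These 4 lower and 1 higher gene, with groups that did not overlap, compare with 24.1% and 23.3% of all genes. Some calls depended on libraries outside the contrast, which enter the shared estimate of spread. Without the first nintedanib library Ccna2 (adjusted p = 0.0304) and Aurka (0.0304) passed, without the second Ccna2 (0.0355), Cdc25c (0.0224) and Aurka (0.0409), and without the third Cdc25c (0.0424).

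The cyclin B estimates were the closest to 0. Ccnb2 was at 112, 135.5 and 121 FPKM with both treatments, on either side of the irradiated libraries (-0.01, 95% interval -0.21 to 0.19). Ccnb1 was at 78.7, 75.6 and 80.0 FPKM (-0.09, adjusted p = 0.506). Cdc25b was at 86.7, 87.2 and 94.2 FPKM (-0.10), Plk1 at 60.8, 65.2 and 72.5 FPKM (-0.23) and Aurkb at 38.6, 41.2 and 43.5 FPKM (-0.20), and all 3 overlapped the irradiated libraries.

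The combination against nintedanib asks whether radiation acted in drug-treated cells as well. Here 8 of the 10 rose and 0 fell, against 3.17% and 2.37% of all genes (5.55% in either direction). Aurka had the largest change of the 10, at 1.13 (SE 0.10, adjusted p = 0.000464), and ranked 28 of 13012. Ccnb2 (0.96), Ccnb1 (0.91), Cdk1 (0.71), Cdc25c (0.67), Plk1 (0.67), Cdc25b (0.54) and Wee1 (0.40) rose too, while Ccna2 (0.32, adjusted p = 0.0851) and Aurkb (0.23, adjusted p = 0.178) did not pass. In the 9 genes other than Aurkb the groups did not overlap, against 10.4% of all genes that stood higher without overlap. Leaving out single libraries ended 2 calls. The Plk1 call was lost without the second (adjusted p = 0.0785) or the third nintedanib library (0.0681) and the second (0.0754) or the third combination library (0.0782). The Wee1 call was lost without the third nintedanib (0.0559) or second combination library (0.0704). Ccna2 passed without the first nintedanib library (0.43, adjusted p = 0.0173). Fitted on only these 2 groups, 4 of the 10 rose.

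**Figure D4:**
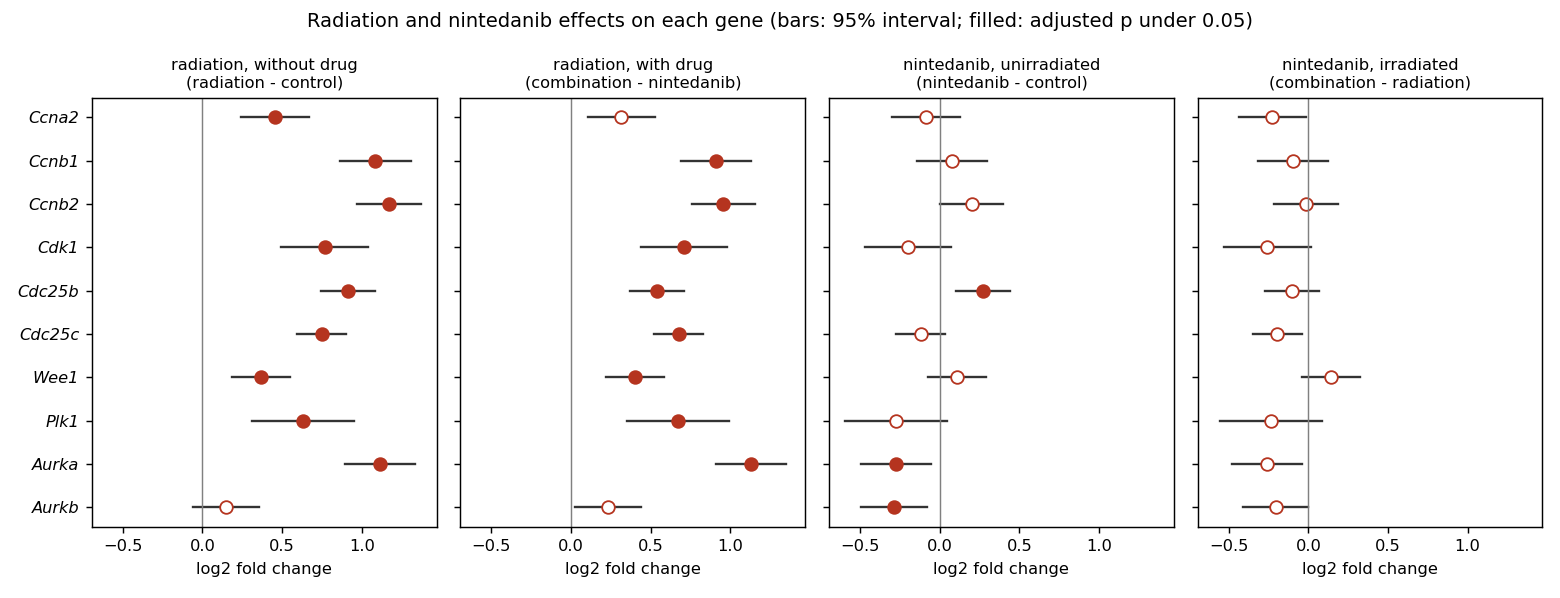
Log2 fold changes on the log2(FPKM + 1) scale (x axis) of the 10 genes with 95% intervals, for radiation without and with the drug and for nintedanib without and with radiation; filled points passed an adjusted p of 0.05. The radiation estimates all lie above 0, and the drug estimates in irradiated cells are all unfilled.

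The combination was also set against the untreated controls, which the radiation and nintedanib comparisons share. Of the 10, 8 rose and 0 fell, against 22.3% and 25.0% of all genes (47.2% in either direction), with a median of 0.53. In 9 of the 10 every library with both treatments was above every control, against 26.7% of all genes, and in 0 below, against 30.1%. The changes were 1.16 for Ccnb2, 0.99 for Ccnb1, 0.86 for Aurka, 0.81 for Cdc25b, 0.56 for Cdc25c, 0.51 for Wee1, 0.51 for Cdk1 and 0.40 for Plk1. The Plk1 call (adjusted p = 0.0426) was lost in 9 of 22 settings. These included leaving out the first (0.106), second (0.0633) or the third control (0.0993), the first (0.0514) or the third radiation library (0.054) and the second (0.0823) or the third combination library (0.133). Ccna2 did not pass (0.23, adjusted p = 0.0704), but did without the first (0.0216) or second nintedanib library (0.0253). Aurkb was at 38.6 to 43.5 FPKM, across the range of the controls (-0.06, 95% interval -0.26 to 0.15).

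Between the single treatments, all 10 genes were higher after radiation than after nintedanib, against 18.3% of all genes that were higher and 18.9% that were lower (37.2% in either direction). In none of the 10 did the groups overlap, whereas 23.1% of all genes stood higher and 24.2% lower without overlap. The log2 difference ran from 0.26 for Wee1 (adjusted p = 0.0288) to 1.39 for Aurka (adjusted p = 2.33e-06). The Wee1 call was lost without the third nintedanib library (adjusted p = 0.0963), the first (0.0926) or the third radiation library (0.103).

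Ordered by mean level, radiation was highest in 9 genes and the combination in Wee1, and these 2 groups, adjacent at the top in every gene but Aurkb, did not differ by the test in any. Controls were lowest for Ccnb1, Ccnb2, Cdc25b and Wee1, and nintedanib was lowest for the other 6. At the bottom of the order, control and nintedanib differed for Cdc25b and Aurka. In Aurkb no 2 neighbours in the order radiation, control, combination, nintedanib differed, although its outer 2 did (0.44, adjusted p = 0.00372).

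The interaction, which is the drug effect with radiation less the drug effect without it, was called for 0 of the 10 genes by limma and by voom, and for 1 of the 13012 genes tested, 0.00769%. At an unadjusted p under 0.05 there was 1 of the 10, Cdc25b (-0.375, 95% interval -0.61 to -0.14, adjusted p = 0.254). Cdc25b was higher with the drug in unirradiated cells (0.27) and did not pass in irradiated ones (-0.10). For the other 9 genes the estimates ran from -0.21 for Ccnb2 to 0.08 for Aurkb, with intervals that reached -0.50 and 0.50.

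Genes around the switch were counted in lists, and each share called is read beside that of all genes: 17.9% after radiation (8.04% higher, 9.90% lower) and 34.4% with the drug added to radiation (17.2% higher, 17.3% lower). No difference between a list and all genes, or between lists, was tested. With nintedanib alone 19.7% of all genes rose and 22.0% fell against controls. In that comparison 0 rose and 2 fell of 9 CDK1 partners, 0 and 8 of 15 Polo and Aurora genes, and 0 and 3 of 8 Greatwall genes. Among other mitotic kinases it was 0 and 5 of 14, among brakes 2 and 5 of 14, and among transcription factors 1 and 8 of 23. For cyclin destruction it was 1 and 6 of 20, and for G1/S 1 and 11 of 23. The interaction was called for 0 genes of each list. Among 9 tested partners and regulators of CDK1, 2 rose and 0 fell after radiation (22.2%). That was near the 17.9% of all genes called in either direction and above the 8.04% that rose. The F-box cyclin Ccnf stood at 18.4 ± 0.659 FPKM (mean ± SD of 3 libraries here and below) and went to 28.8 ± 1.56 FPKM (0.62 on the log2 scale, adjusted p = 0.00266). The CDK subunit Cks2 rose by 0.46 (adjusted p = 0.0299), a call lost without the first (0.0852) or the third control (0.103) and the first (0.0972) or second radiation library (0.0942). Adding the drug to radiation left 2 of the 9 lower (22.2%), the CDK-activating kinase Cdk7 (-0.27) and its assembly factor Mnat1 (-0.32, adjusted p = 0.0241). Of all genes, 34.4% were called in either direction and 17.3% were lower. The Mnat1 call was lost without the first radiation (0.0978) or the third combination library (0.0935).

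Of 15 tested cofactors and relatives of the Polo and Aurora kinases, 8 rose and 2 fell after radiation (66.7% called, against 17.9% of all genes), and with the drug added 0 rose and 10 fell relative to radiation alone (66.7%, against 34.4%). Tpx2, the spindle protein that activates Aurora A, went from 71.9 ± 2.17 to 130.5 ± 3.33 FPKM after radiation (0.85, adjusted p = 9.98e-05). Sgo2a, a guardian of centromeric cohesion, rose by 0.94 (adjusted p = 5.86e-05), while the stress-responsive Polo relative Plk3 fell by 0.75 (adjusted p = 0.00202). Bora, the cofactor through which Aurora A activates PLK1, was at 8.22 ± 0.0325 FPKM in controls, 4.95 ± 0.650 with nintedanib, 11.8 ± 0.725 after radiation and 5.77 ± 0.326 with both (-0.92 for the combination against radiation, SE 0.08, adjusted p = 1.36e-05). In the same comparison Plk2 (-0.74) and the centriole duplication kinase Plk4 (-0.50) fell. Aurka and Plk1, between which Bora acts, did not pass there. With nintedanib alone, Plk2 (-1.19) and Plk4 (-0.38) were also lower than in controls.

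The Greatwall and PP2A-B55 list held 8 genes. PP2A-B55 is a phosphatase that dephosphorylates CDK1 substrates, and the Greatwall kinase restrains it. After radiation 1 of the 8 rose: the Greatwall kinase Mastl, from 8.82 ± 1.49 to 19.0 ± 0.608 FPKM (1.04, SE 0.11, adjusted p = 0.000244). The share called was 12.5%, against 17.9% of all genes in either direction and 8.04% that rose. With the drug added, 3 of the 8 fell and 0 rose (37.5% called). Of all genes, 34.4% were called in either direction and 17.3% were lower. The 3 included the phosphatase subunit Ppp2r2a (-0.51, adjusted p = 6.45e-05). The count of 3 was 1 without the first radiation or the third combination library.

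Of 14 other mitotic kinases, 6 rose and 1 fell after radiation (50%, against 17.9% of all genes). The spindle checkpoint genes Bub1b (0.67) and Ttk (0.64) and the centrosome kinase Nek2 (0.87, adjusted p = 0.000166) rose. The count of 7 changed genes was 3 without the third control and without the second or the third radiation library, and 4 without the first. With the drug added, 6 fell and 0 rose (42.9%, against 34.4% of all genes), including Pbk (-0.71), Nek9 (-0.49) and Bub1b (-0.31, from 55.1 ± 0.303 to 44.4 ± 0.490 FPKM). Nek2, at 43.0 ± 0.833 FPKM after radiation and 43.1 ± 0.242 FPKM with both, is also among the genes whose pattern was most like that of the 10.

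Of 14 tested brakes on G2, 2 rose and 0 fell after radiation (14.3%), and 1 rose and 4 fell when the drug was added (35.7%). Both shares were near those of all genes called in either direction, 17.9% and 34.4%. Of all genes, 8.04% rose after radiation. The count after radiation was 1 without any 1 of the controls or the first or the third radiation library, and 0 without the second. Chek1, the checkpoint kinase that inhibits CDC25, went from 6.96 ± 0.278 to 9.25 ± 0.308 FPKM with radiation (0.37, adjusted p = 0.0132, and 0.0555 without the second radiation library). It was at 4.87 ± 0.674 FPKM with nintedanib and 6.02 ± 0.370 FPKM with both, a change of -0.55 relative to radiation (adjusted p = 0.000498). Gadd45a, whose product can dissociate CDK1 from cyclin B1, fell by 1.70 (adjusted p = 0.000101) and the tumour suppressor gene Trp53 by 0.68 (adjusted p = 5.35e-05) in that comparison. Both were also low with nintedanib alone: Gadd45a was at 68.0 ± 12.3 FPKM in controls and 9.68 ± 2.20 FPKM with the drug, and Trp53 at 137 ± 3.74 and 77.1 ± 3.22 FPKM.

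A list of 23 held MuvB, B-MYB, FOXM1, E2F, RB family and NF-Y factors, repressors as well as activators of the G2/M and G1/S waves. Of these, 5 rose and 1 fell after radiation (26.1%, against 17.9% of all genes), among them E2f2 (0.66, adjusted p = 0.00392). When the drug was added 1 rose and 13 fell (60.9%, against 34.4%), among them E2f3 (-0.75), E2f2 (-0.76) and the NF-Y subunit Nfya (-0.46, adjusted p = 0.000448). The radiation count of 6 was 1 without the second control or the second radiation library, 2 without the third control or the first or the third radiation library, and 10 without the first nintedanib library or with only the 2 groups in the fit. The count of 14 with the drug added was 9 without the first radiation library. Foxm1, an activator of the G2/M wave, rose after radiation by 0.30 (29.9 ± 0.485 to 37.1 ± 0.986 FPKM, adjusted p = 0.0257). That call was lost without any 1 of the 3 control (adjusted p = 0.0571 to 0.0799) or the 3 radiation libraries (0.0623 to 0.0764).

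Genes of cyclin destruction rose in 3 of 20 cases after radiation and fell in 0 (15.0% called). Of all genes, 17.9% were called in either direction and 8.04% rose. The 3 were Cdc20 (0.74) and Fzr1 (0.43), the activators of the anaphase-promoting complex, and its ubiquitin-conjugating enzyme Ube2c (0.96, from 98.7 ± 5.54 to 194 ± 21.7 FPKM). Over the 22 alternative settings the count of 3 ran from 3 to 6 and was 5 or 6 in 8 of them. It was 5 without the first or the third nintedanib library. With the drug added 1 rose and 5 fell (30%, near the 34.4% of all genes), including the complex's inhibitor Fbxo5 (-0.74), its subunit Cdc27 (-0.53) and the deubiquitinase Usp37 (-0.56).

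In the G1/S list 4 of 23 rose and 4 fell after radiation (34.8%, against 17.9% of all genes), and 1 rose and 12 fell when the drug was added (56.5%, against 34.4%). The radiation count of 8 was 1 to 3 without any 1 of the control or radiation libraries, 2 with no filter on low values and 16 with only the 2 groups in the fit, and that of 13 with the drug added was 7 or 8 without the first or second radiation library or the first or second combination library. After radiation the means of the D-type cyclins Ccnd1, Ccnd2 and Ccnd3 were all below controls, but they did not move together when the drug was added. Ccnd2 went from 24.4 ± 0.916 to 14.9 ± 0.833 FPKM after radiation (-0.68, adjusted p = 0.000238) and to 9.10 ± 0.280 FPKM with both. Ccnd1 was at 123 ± 11.5 FPKM after radiation and 59.9 ± 1.95 FPKM with both (-1.02, adjusted p = 6.83e-06). Ccnd3, named after its values were seen, was at 6.88 ± 0.803 FPKM after radiation and 8.93 ± 0.967 FPKM with both, the 1 gene of the list that rose (0.33, adjusted p = 0.0351). That call was lost without the first (0.0859) or second radiation library (0.129) and the second (0.0586) or the third combination library (0.13). It was also lost with no filter on low values (0.0834) and with a replicate block (0.0615). Of the 2 proliferation markers, 1 rose after radiation and both fell when the drug was added. Top2a rose after radiation from 111 ± 4.99 to 164 ± 2.37 FPKM (0.56, adjusted p = 0.00133) and was at 106 ± 3.80 FPKM with both, a change of -0.62 relative to radiation (adjusted p = 0.000157). Mki67 was at 75.3 ± 9.77 FPKM in controls, 93.0 ± 9.77 FPKM after radiation (0.30, adjusted p = 0.105) and 71.1 ± 9.42 FPKM with both (-0.39 relative to radiation, adjusted p = 0.0278). Its fall was not called without the second (0.095) or the third radiation library (0.0886) or the second (0.0981) or the third combination library (0.0932).

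**Figure D5:**
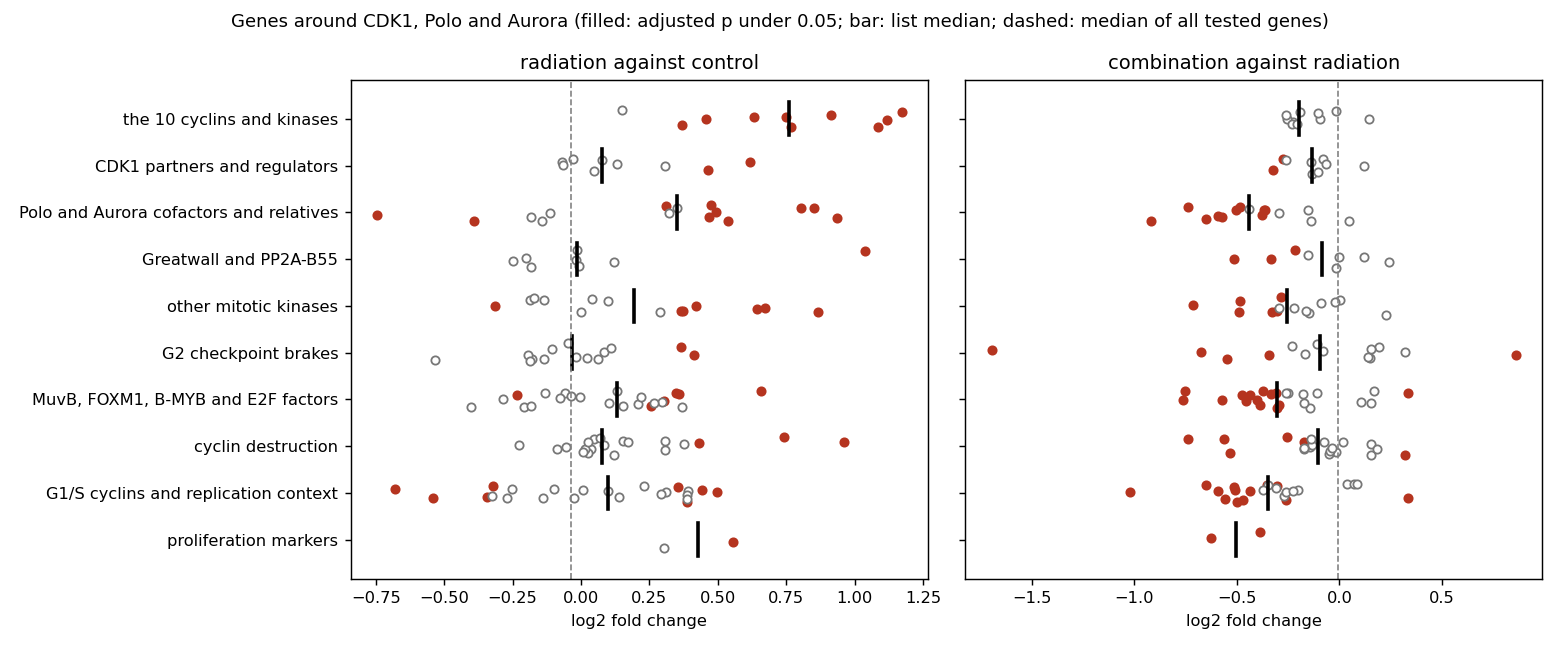
Log2 fold changes (x axis) of the 10 genes and of the tested genes of each list (rows), for radiation against control and the combination against radiation; 1 point per gene, filled where the adjusted p was under 0.05, with black bars at list medians and a dashed line at the median of all tested genes. After radiation the 10 genes have the highest median of the rows, 0.76; in the right panel all 10 are unfilled.

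Pattern likeness was measured over the 12 libraries as the correlation of each gene with the mean of the 10, each centred on its own mean. The 8 other genes most like it were Bub3 (Pearson r = 0.991), Cenpa (0.989), Ube2c (0.988), Kif20a (0.985), Kif2c (0.983), Troap (0.979), Nek2 (0.975) and Fam83d (0.974). Bub3, a spindle checkpoint protein gene, was at 22.3 to 23.5 FPKM in controls, 19.7 to 22.9 with nintedanib, 32.99 to 37.6 after radiation and 30.5 to 33.6 with both. Cenpa, the centromeric histone gene, was at 17.2 to 18.4, 15.7 to 20.6, 31.0 to 32.4 and 28.0 to 32.9 FPKM in the same order. Of the 10 themselves, Aurka followed the mean most closely (0.993) and Aurkb (0.674) and Wee1 (0.828) least. Each of the 10 is part of that mean, in which genes with larger changes weigh more. Their values are therefore not comparable with those of the 8 other genes. These correlations describe 12 libraries in 4 groups and share every library.

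Reads of the 10 genes could be shared with a few neighbours and copies. Ccna2 overlapped Exosc9 by 863 bases and Cdc25b overlapped Spef1 by 334 bases, both on the opposite strand, and whether strand was used in counting is not given in the sources. Exosc9 was at 7.80 to 11.9 FPKM and Spef1 at 5.63 to 12.7 FPKM. Also on the opposite strand, Wee1 overlapped 1600010M07Rik by 21241 bases (at most 0.0977 FPKM). Cdc25c overlapped Gm3550 by 1656 bases (0.544 to 1.78 FPKM), and Plk1 overlapped Gm44985 by 1016 bases (at most 0.608 FPKM). The pseudogenes Ccnb1-ps (0.584 to 2.33 FPKM), Ccnb2-ps (1.64 to 3.19 FPKM) and Plk-ps1 (0.376 to 1.04 FPKM) stayed far below their parent genes.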

How the data were processed

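The 12 RNA libraries of MC38 cells were prepared with a SMARTER mRNA kit, per the labels' protocols. The authors deposited FPKM values for each gene, with gene model lengths, per the file headers. The submitters' processing notes name GRCm38 and mm10. Which aligner, counter, annotation and strand option were used is not given in these sources. FPKM times length came out as whole fragments for 100% of nonzero values in each library (tolerance 0.01), which gave the fragment totals. The authors' values also carry a scaling per library, since the depth they imply was 0.970 to 1.03 of those totals.

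Groups and replicate numbers came from sample titles. The model was limma 3.58.1 in R 4.3.3 on log2(FPKM + 1), with an intensity trend, group means as coefficients and 8 residual degrees of freedom. It took the 13012 genes that reached 1 FPKM in 3 or more libraries, and Benjamini-Hochberg adjustment ran over all of them in each of 7 comparisons. Fold changes on this scale understate those of low genes. The code was tested on simulated data. The 10 genes, the lists and the motifs were chosen with earlier results of these data known. Of each list, up to 3 genes with the smallest adjusted p in radiation against control and up to 3 in the combination against radiation could be named. Alternatives were another pseudocount, other filters, rescaled FPKM, voom on recovered fragments, no trend, separate fits, a replicate block and leaving out each library. Promoter sequences are RefSeq's.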

Additional observations from a re-analysis of the deposited data

How the results depend on the processing

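Of the 10 genes, 3 changed after nintedanib as reported, against 1 with no filter on low values, 0 with only the groups compared and 1 to 4 without single libraries (1 without the first, second or the third control or the third nintedanib library). In the combination against radiation 0 changed, against 1 when genes had to reach 5 FPKM in 3 libraries, 3 rescaled to a common sum, 1 with voom, 1 with only the groups compared and 0 to 3 without single libraries (2, 3 and 1 without the first, second and the third nintedanib library). In the combination against nintedanib 8 changed, against 4 with only the groups compared. The radiation count was 8 to 10 over all 22 alternatives. Small estimates that had not passed changed sign in a few settings. Rescaled to a common sum, Ccna2 after nintedanib was at 0.009, Aurkb in the combination against control at 0.009, and the interaction at -0.099 for Wee1, -0.094 for Plk1, -0.123 for Aurka and -0.053 for Aurkb. That scaling moved the median interaction of all genes from 0.01 to -0.10. Rescaled by fragment totals, which was chosen after seeing the data, Aurkb in the combination against control was at 0.011 and the interaction at -0.017 for Wee1, -0.009 for Plk1 and -0.038 for Aurka. Without single libraries the values ran from -0.197 to 0.025 for Ccna2 after nintedanib, from -0.088 to 0.050 for Ccnb2 in the combination against radiation, and for the interaction from -0.198 to 0.031 for Cdk1, from -0.037 to 0.092 for Wee1, from -0.089 to 0.236 for Plk1 and from -0.083 to 0.118 for Aurka.

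Over all genes, radiation changed 2334, against 1333 and 1250 without the second and the third control and 1523 and 1145 without the first and second radiation library. The combination against nintedanib changed 722, against 43 with only the groups compared, 444 with a replicate block, 357 and 453 without the second and the third nintedanib library and 269 and 432 without the second and the third combination library. The interaction was called for 0 to 12 genes. The changed genes were 47.2% higher after nintedanib and 60.0% rescaled to a common sum. The labels do not say whether replicate numbers mark shared experiments, and they were not used as pairs. Deviations of same-numbered libraries correlated at -0.298 to 0.202, and those of other-numbered libraries at -0.244 to 0.29. Of 12 libraries, 4 correlated better with their own number, which does not exclude pairing. With a replicate block, 2, 9, 7, 0, 8, 10 and 0 of the 10 genes were called in nintedanib, radiation and the combination against control, the combination against radiation and against nintedanib, radiation against nintedanib and the interaction. How the calls depend on depth was not tested.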

Other observations

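The balance between cyclin B1 and its kinase also differed between groups. Ccnb1 over Cdk1 FPKM within a library was 1.31 to 1.57 in controls, 1.73 to 1.82 with nintedanib, 1.69 to 1.89 after radiation and 1.88 to 2.29 with both. Every treated library was above every control. This ratio was looked at after the levels were known and was not tested. How often ratios of other genes separate in this way was not counted. With nintedanib alone neither Ccnb1 (limma adjusted p = 0.557) nor Cdk1 (0.224) passed the test.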
